A study of Mus musculus with 4 samples.

Results

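Chromatin at 8 genes of red blood cell identity was described in a mouse pre-B acute lymphoblastic leukemia culture, that is, at genes of another blood lineage. The genes were Klf1, Epor, Slc4a1, Gfi1b, Gata2, Hba-a1, Tfrc and Nfe2, all 8 were found, and they stand beside 17541 protein-coding genes whose positions could be set on the same map. They were chosen by name. For each gene the peaks of 3 deposited chromatin immunoprecipitation sequencing (ChIP-seq) lists were taken when they overlapped the gene body plus 20 kb on each side by at least 1 bp.

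Every library came from pre-B leukemia cells of strain C57BL/6J, with overexpressed BCR-ABL1 (a constitutively active kinase made by a gene fusion) and a p19 null genotype. The series held 4 libraries, 1 each for an antibody to PHF6 (a chromatin-associated zinc finger protein), to acetylated lysine 27 of histone H3 (H3K27ac, found at active promoters and enhancers) and to trimethylated lysine 27 (H3K27me3, deposited by Polycomb repressive complex 2), and 1 for input DNA, which was not analysed here. The series title names regulation of B-cell identity by PHF6, and erythroid genes give the view from outside that lineage. The labels do not say whether the cells were 1 clone. With 1 library per antibody there is no replicate error and no p-value, and the counts below describe these libraries.

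Red cell formation is directed by a small set of transcription factors. GATA2 acts in progenitors and is followed by GATA1, with KLF1 (EKLF) activating globin and membrane genes, GFI1B repressing genes of other fates, and NF-E2, whose large subunit Nfe2 encodes, acting at globin control regions. The erythropoietin receptor (Epor) signals through JAK2 and STAT5, the transferrin receptor (Tfrc) imports iron in erythroid and in other dividing cells, and Hba-a1 (adult alpha globin) and Slc4a1 (the band 3 anion exchanger) are products of the mature red cell.

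The letters before the start sites set the scene, because erythroid genes are classical targets of GATA factors. Start sites were in the RefSeq promoter table (build GRCm38.p6) for 6 of the 8 genes. Slc4a1 and Nfe2 were not matched. The 250 bases before the start were searched on both strands for the GATA motif, an A or a T followed by GATAA or by GATAG. Klf1, Epor, Gfi1b and Hba-a1 each held 1 match, and the windows of Gata2 and Tfrc, with 2 annotated start sites each, held 0. Of all 32851 promoters in the table, 26.5% held a match. The 4 windows with a match are printed 5′ to 3′, with the match in capitals.
Klf1, chr8:84901732-84901981, plus strand: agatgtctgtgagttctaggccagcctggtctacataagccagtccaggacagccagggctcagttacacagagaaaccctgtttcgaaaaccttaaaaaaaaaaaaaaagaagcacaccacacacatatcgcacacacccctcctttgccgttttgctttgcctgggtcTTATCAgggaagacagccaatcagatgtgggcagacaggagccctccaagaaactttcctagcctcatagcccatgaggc
Epor, chr9:21963577-21963826, minus strand: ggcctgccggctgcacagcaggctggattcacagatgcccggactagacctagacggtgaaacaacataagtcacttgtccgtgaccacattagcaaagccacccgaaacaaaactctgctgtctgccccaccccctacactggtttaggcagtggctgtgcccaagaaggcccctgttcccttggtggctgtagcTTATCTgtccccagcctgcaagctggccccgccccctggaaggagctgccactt
Gfi1b, chr2:28621983-28622232, minus strand: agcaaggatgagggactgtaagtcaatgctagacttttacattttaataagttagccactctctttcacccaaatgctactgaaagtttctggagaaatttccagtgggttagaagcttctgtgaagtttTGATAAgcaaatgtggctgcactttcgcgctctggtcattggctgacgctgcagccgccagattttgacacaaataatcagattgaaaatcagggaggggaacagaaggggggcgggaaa
Hba-a1, chr11:32283422-32283671, plus strand: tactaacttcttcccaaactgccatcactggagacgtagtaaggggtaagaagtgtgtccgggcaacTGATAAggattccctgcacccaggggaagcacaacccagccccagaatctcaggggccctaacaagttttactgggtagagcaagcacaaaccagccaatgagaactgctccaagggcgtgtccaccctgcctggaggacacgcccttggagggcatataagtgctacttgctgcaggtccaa
The matches began 80 bases before the start in Klf1, 54 in Epor, 120 in Gfi1b and 183 in Hba-a1. The letters CCNCNCCC, which cover the CACC box bound by KLF-type factors, were found 4 times before Epor, 2 times before Gfi1b, 1 and 6 times before the 2 starts of Gata2 and 3 and 2 times before those of Tfrc, with overlapping matches counted, and 0 times before Klf1 and Hba-a1, against 45.9% of all promoters with a match. TGANTCA, the core shared by NF-E2 and AP-1 sites, was in 6.75% of all promoters and in none of the windows of the 6 genes. These matches describe letters and not binding.

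PHF6 was found at every one of the 8 loci and H3K27ac at 7, while H3K27me3 was found at 1. PHF6 peaks numbered 62 over the 8 windows, H3K27ac peaks 28 and H3K27me3 peaks 2. Among all placed genes the same windows held PHF6 for 88.2%, H3K27ac for 78.6% and H3K27me3 for 26.7%, so the counts of loci with PHF6 and H3K27ac were near those of genes at large. The number of PHF6 peaks per window ran from 2 at Tfrc to 11 at Klf1 and Gata2. It was 10 at Epor and Gfi1b, 9 at Slc4a1, 6 at Hba-a1 and 3 at Nfe2, with a median of 9.5 over the 8 genes and of 4 (quartiles 1 and 8) over all placed genes. H3K27ac peaks ran from 0 at Slc4a1 to 6 at Gfi1b and Gata2, with a median of 4 against 2 (quartiles 1 and 4) for all genes. Windows differ in gene length and gene density, and no test was made of these counts.

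**Figure D1:**
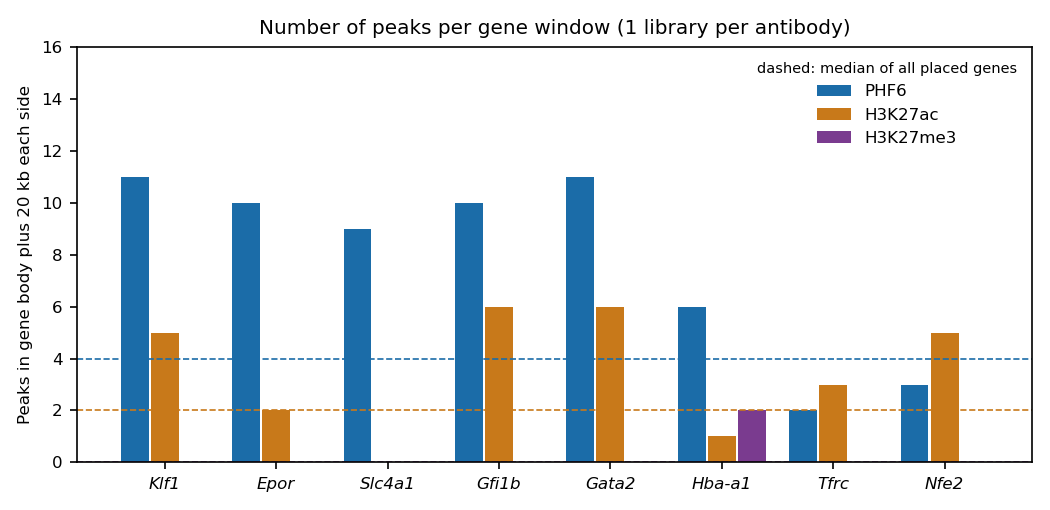
Number of peaks of the 3 lists (PHF6 blue, H3K27ac orange, H3K27me3 purple) in the gene body plus 20 kb each side of each gene, 1 library per antibody. Dashed lines are the medians over 17541 placed genes (4 for PHF6, 2 for H3K27ac, 0 for H3K27me3); Klf1, Epor, Slc4a1, Gfi1b, Gata2 and Hba-a1 stand above the PHF6 median and Tfrc and Nfe2 below it.

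At the start sites the 6 genes divided into those with both PHF6 and H3K27ac and those with PHF6 alone. A PHF6 peak reached within 1 kb of a start site in 6 of 6 genes, against 69.2% of the 14825 placed genes with a start site. An H3K27ac peak did so in 4 of 6, namely Klf1, Gfi1b, Gata2 and Tfrc, against 63.3%. The same 4 genes had both, against 57.6%. Epor and Hba-a1 had PHF6 and no H3K27ac there, a state seen at 11.6% of genes. H3K27me3 lay at 1 of 6 start sites, Hba-a1, against 3.65%. Both counts depend on how a peak is assigned. For H3K27ac, only Gata2 and Tfrc had the summit itself within 1 kb. The H3K27ac peaks of Klf1 and Gfi1b reached the window from summits 1.12 and 1.37 kb inside the gene. For PHF6, 4 of 6 genes had a summit within 1 kb. The PHF6 peaks of Epor and Gfi1b reached the window from summits 1.14 and 1.29 kb inside the gene.

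**Figure D2:**
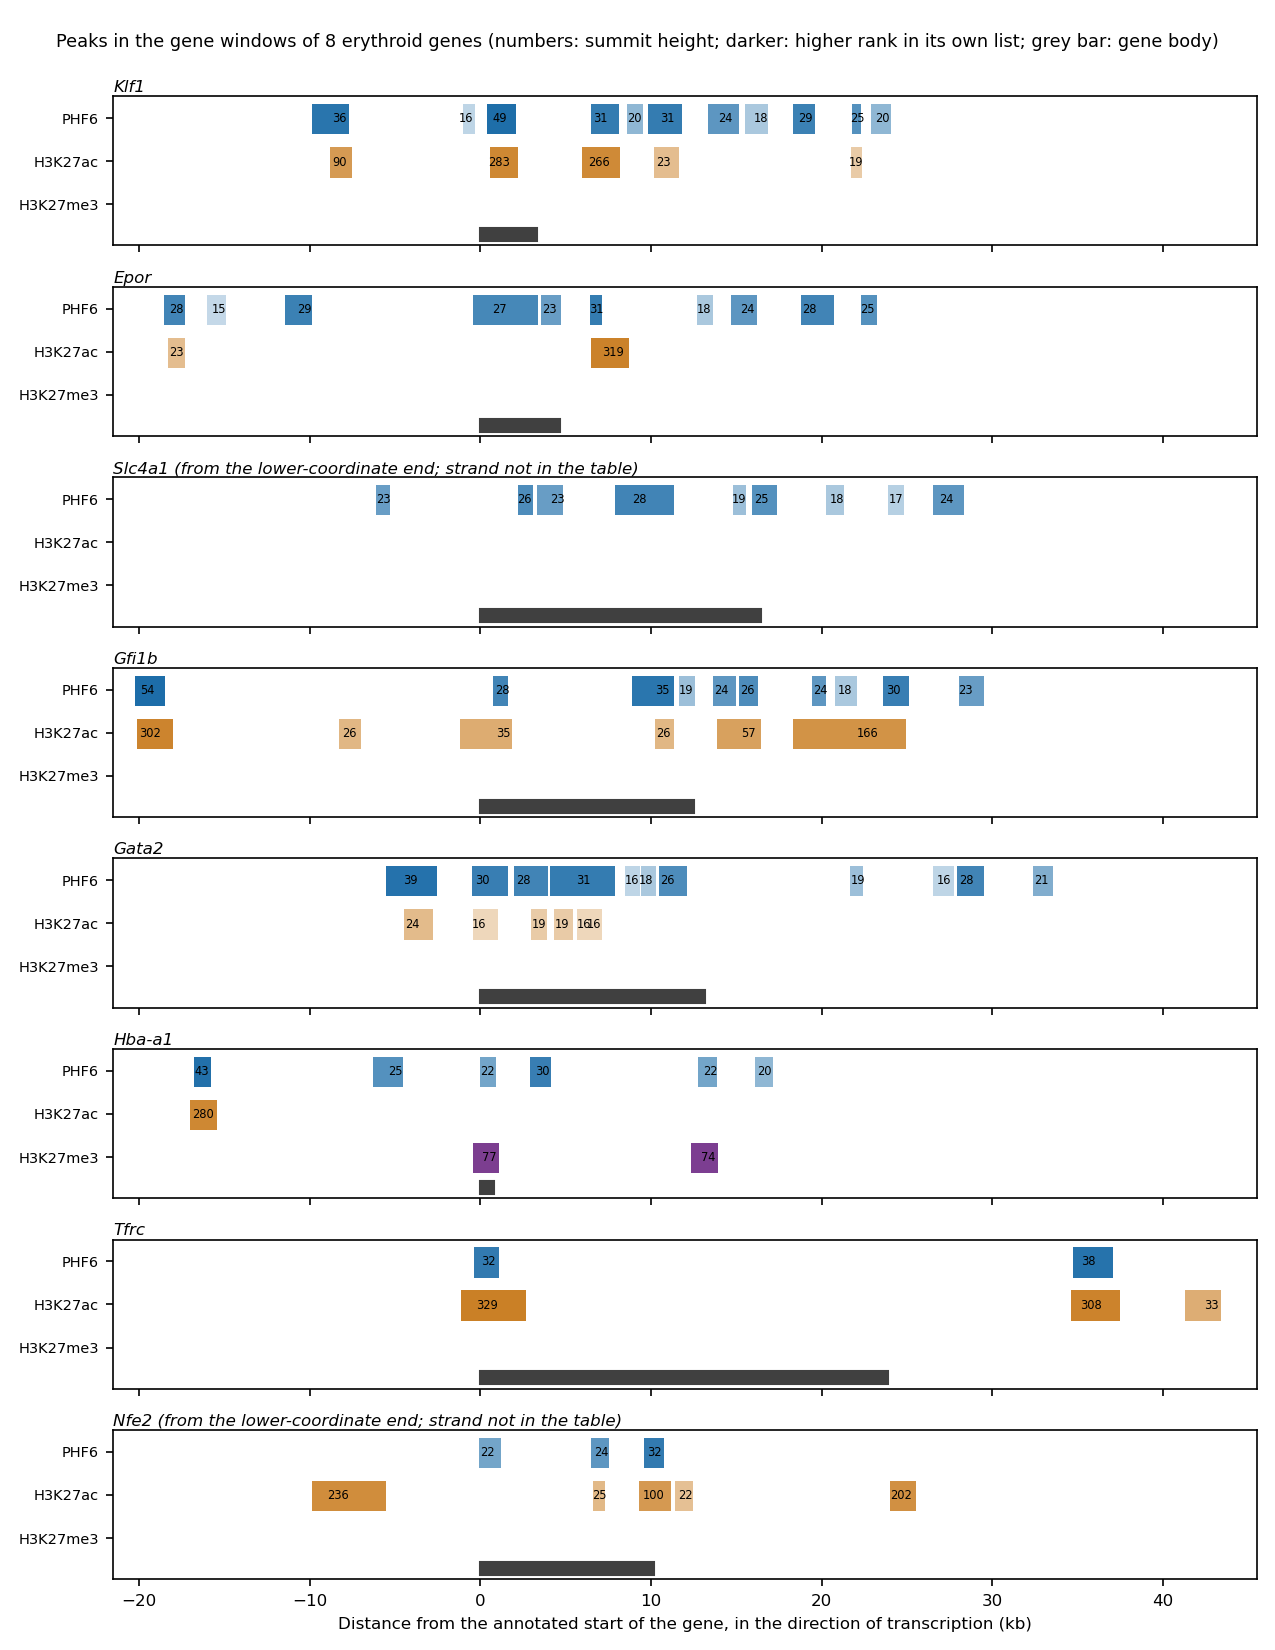
Peaks around the 8 genes, plotted by distance (kb) from the annotated start in the direction of transcription, or from the lower-coordinate end for Slc4a1 and Nfe2. Each box is a deposited peak, the number in it is its summit height, darker boxes rank higher in their own list, and the grey bar is the gene body; Slc4a1 has PHF6 boxes only, Hba-a1 has both H3K27me3 boxes, and the Gata2 H3K27ac boxes are pale.

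The transcription factor genes come first. A summit height is the whole-number pileup that the peak caller deposited for each peak, its largest value was 400 in all 3 lists, and heights are ranked only within 1 list. Gene positions differed by up to 373 bp between the ways of setting them, so a smaller distance to a start or an end says only that a summit was near it. In the lists as a whole the median height was 22 for PHF6, 35 for H3K27ac and 16 for H3K27me3.

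Klf1 carried a tall acetylated peak inside the gene. The H3K27ac peak on chromosome 8 from 87426322 to 87427997 (mm9) had height 283, above 85.4% of the H3K27ac list, with its summit 1.12 kb downstream of the start in a gene body of 3310 bp. The PHF6 peak at 87426192 to 87427855 had height 49, above 98.5% of the PHF6 list, and its summit lay 1.16 kb downstream of the start. The summits of the 2 lists were thus on the same stretch of the gene, and a low PHF6 peak of height 16 without H3K27ac lay 0.83 kb upstream. An H3K27ac peak of height 200 or more within 1 kb of a start site was found at 39.3% of all genes. The other tall H3K27ac peak of the Klf1 window, of height 266, lay 192 bp from the start of Dnase2a, which encodes a lysosomal nuclease, and a peak of height 90 lay 190 bp from the start of Gcdh, a mitochondrial dehydrogenase gene. Of the 11 PHF6 peaks in the window, 5 overlapped H3K27ac, with heights of 25, 31, 31, 36 and 49. The other 6 had heights of 16, 18, 20, 20, 24 and 29, so the 2 classes overlapped in height.

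Gfi1b had the broadest acetylation of the 8 loci. Its 6 H3K27ac peaks covered 16581 bp of the window, against 9498 bp at Nfe2 and 8771 bp at Tfrc, the next in order. The peak over the start, on chromosome 2 from 28475828 to 28478870, was of modest height, 35, above 49.5% of its list. Its summit was nearer the start of the neighbour Gm52548 (939 bp) than that of Gfi1b (1373 bp). The PHF6 summit there was likewise nearer Gm52548 (1022 bp) than Gfi1b (1290 bp). The peaks past the 3′ end of the gene were taller. One of height 57 lay 15.7 kb and one of height 166 lay 22.7 kb downstream of the start, and the latter spanned 6609 bp. The nearest annotated start sites of any gene were 13397 and 16001 bp from these summits. The peaks held PHF6 peaks of height 26 and 24, and of height 30, 18 and 24, respectively. The tallest H3K27ac and PHF6 peaks of the window, with heights of 302 and 54, belonged to the neighbourhood of another gene, since the H3K27ac summit was 83 bp from the start of Tsc1, a growth regulator of the mTOR pathway. Of the 10 PHF6 peaks, 8 overlapped H3K27ac. With H3K27ac peaks merged across gaps of 10 kb or less, the region that takes in Gfi1b and the Tsc1 start held 8 peaks over 19.6 kb of peak and ranked 247 of 18977 by peak bases.

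Gata2 combined wide PHF6 coverage with weak acetylation. PHF6 peaks covered 18589 bp of its window, the most of the 8 loci, and the peak on chromosome 6 from 88147819 to 88151616 alone spanned 3798 bp. That peak had height 31 and lies over the downstream of the 2 annotated start sites. The peak over the upstream start had height 30 and its summit was 107 bp from that start. All 6 H3K27ac peaks were low, with heights of 24, 16, 19, 19, 16 and 16 in order along the chromosome, and the tallest exceeded 34.1% of the H3K27ac list. All 6 overlapped PHF6, in 4 adjoining PHF6 peaks of height 39, 30, 28 and 31, whose summits ran from 4.12 kb upstream to 6.03 kb downstream of the first start. The other 7 PHF6 peaks, with heights of 16 to 28, had no H3K27ac. No H3K27me3 peak lay in the window, and the nearest was 173 kb beyond its edge.

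At Nfe2 both lists had a summit at 1 end of the gene. The strand is not in the tables used here, so distances are from the ends of the gene body. The H3K27ac peak on chromosome 15 from 103088055 to 103089903 had height 100, above 68.2% of its list, and its summit was near the higher-coordinate end. The PHF6 peak there had height 32 and its summit was near the same end, whose position differed by up to 319 bp between settings. The other PHF6 peaks of this window, with heights of 22 and 24, were also in the gene body. The 2 tallest H3K27ac peaks of the window had heights of 236 and 202 and no PHF6 peak. They were near start sites of neighbours, that of Cbx5, which encodes the heterochromatin protein HP1 alpha, and that of Copz1, a coat protein gene.

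The receptor and iron uptake genes differed from each other. Tfrc had the tallest acetylated start of the 6 genes with a start site. Its H3K27ac peak on chromosome 16 from 32607712 to 32611528 had height 329, above 93.3% of the list, with a PHF6 peak of height 32 whose summit was 245 bp from an annotated start site. It had the fewest PHF6 peaks, 2 in a window of 63.9 kb, and the second, of height 38, lay with an H3K27ac peak of height 308 about 35.8 kb downstream of the start and outside the gene. The nearest annotated start site of any gene was 23539 bp from the H3K27ac summit of that distal pair. It opens a joined H3K27ac region of 12 peaks, 32643470 to 32683485, that ranked 284 of 18977 and runs beyond the window.

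Epor lacked H3K27ac over its whole gene body but held wide PHF6 peaks. The PHF6 peak on chromosome 9 from 21764726 to 21768553 was 3828 bp wide beside a gene of 4680 bp, had height 27 and reached past the start, and another of height 23 covered the 3′ end. Together the 10 PHF6 peaks of the window had heights of 15 to 31, and 2 of them overlapped H3K27ac. The tall H3K27ac peak of the window, of height 319, had its summit 32 bp from the start of Swsap1, a DNA repair gene, and 7.79 kb from that of Epor. The remaining H3K27ac peak had height 23 and lay 17.8 kb upstream of Epor.

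The genes of mature red cell products carried no H3K27ac of their own. Slc4a1 had no H3K27ac peak in a window of 56.5 kb, as did 21.4% of all placed genes, and the nearest one, of height 27, lay 7.85 kb beyond the edge. It nevertheless held 9 PHF6 peaks with heights of 17 to 28, of which 5 overlapped the gene body. The widest, on chromosome 11 from 102217876 to 102221333, had height 28 and score 421, and another of height 25 had its summit near the higher-coordinate end of the gene. These 9 were therefore PHF6 peaks without either histone mark.

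Hba-a1 was the only locus of the 8 with H3K27me3. The H3K27me3 peak on chromosome 11 from 32183308 to 32184807 had height 77, above 98.3% of its list, and a second at 32196067 to 32197629 had height 74 and covered Hba-a2, the neighbouring alpha globin copy. Each copy also had a PHF6 peak of height 22, and neither had H3K27ac. The promoter windows of both copies shared an identical run of 297 of 300 bases, and per the labels' protocols the reads were 40 nt from 1 end, so reads from the shared sequence cannot be assigned to 1 copy and the 2 pairs of peaks are not independent. The H3K27ac peak of the window, of height 280 with a PHF6 peak of height 43, lay 16.2 kb upstream, 279 bp from the start of Nprl3, the housekeeping gene that hosts the alpha globin enhancers. PHF6 peaks without H3K27ac also lay at the starts of Hbq1b (height 30, 320 bp away) and Hbq1a (height 20, 226 bp away), both theta globin genes.

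The trimethylated peaks at globin genes need the behaviour of the whole H3K27me3 list beside them. The peak at Hba-a1 spanned the 815 bp gene from 424 bp before its start to 261 bp past its end. At the adult beta globin gene Hbb-bs, a peak of height 65 covered the 1406 bp gene and reached 127 bp beyond its lower-coordinate and 305 bp beyond its higher-coordinate end, and Hbb-bt had peaks of height 39 and 47. Of the 541 genes with H3K27me3 at a start site, 85.4% also had H3K27ac at a start site, which in genes with several need not be the same one. In 55 genes the H3K27me3 height at a start was 40 or more. Of these, 49 had H3K27ac in a peak at a start, 34 of them with a summit of 200 or more, and 6 had none. Hba-a1 ranked 12th of the 55 by H3K27me3 height and was among the 6 without H3K27ac. The tallest were at Apoe (270), Fth1 (138), Fos (128), Cxcl1 (107), Srgn (100) and Tmsb4x (99), which encode a lipid carrier, the ferritin heavy chain, an immediate early factor, a chemokine, a granule proteoglycan and an actin-binding peptide. The height of 40 was chosen after the values were seen. Whether these peaks, those of the globin genes included, mark trimethylated nucleosomes was not tested.

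Over the 8 windows, PHF6 peaks that overlapped H3K27ac were the taller ones on the median, with wide overlap in height. PHF6 overlapped H3K27ac in 24 of 62 peaks (38.7%, against 30.3% of the PHF6 list), and these had a median height of 31, against 22.5 for the other 38. In the other direction 23 of 28 H3K27ac peaks (82.1%, against 71.7% of the list) held PHF6. Shares per locus ran from 0 of 9 PHF6 peaks at Slc4a1 through 1 of 6 at Hba-a1 and 2 of 10 at Epor to 8 of 10 at Gfi1b and 2 of 2 at Tfrc. Peaks of 1 window are neighbours and not independent of each other. Those on H3K27ac include PHF6 peaks near starts of other genes, such as Tsc1 (height 54) and Nprl3 (height 43). Heights on and off H3K27ac were not compared over the whole PHF6 list, so the difference may not be particular to these loci. An H3K27ac peak with height of 200 or more lay in 6 of the 8 windows, against 53.6% of all genes. Of the 9 such peaks, 6 had their summit within 1 kb of the start of another gene, leaving the peak inside Klf1 and the promoter and distal peaks of Tfrc. This closeness is partly built in, because gene positions were set on H3K27ac summits of this height. Offsets found from PHF6 summits differed by at most 302 bp.

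**Figure D3:**
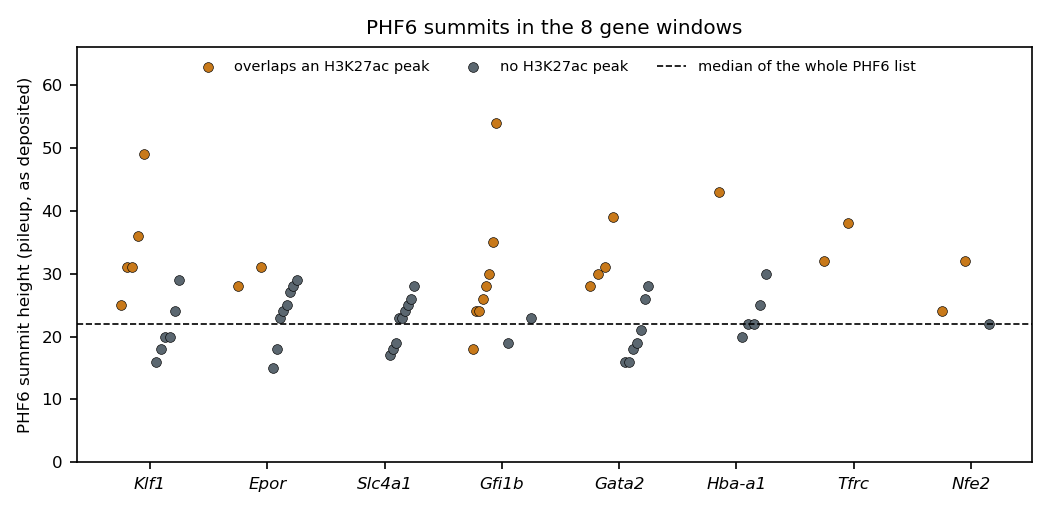
Summit heights of the 62 PHF6 peaks in the 8 gene windows, split into peaks that overlap an H3K27ac peak (orange) and those that do not (grey); the dashed line is the median of the whole PHF6 list, 22. The tallest PHF6 summits of Klf1 (49), Gfi1b (54), Gata2 (39) and Hba-a1 (43) overlap H3K27ac, and all 9 points of Slc4a1 are grey.

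The other genes of the erythroid programme were read at their start sites in 6 lists. Among other erythroid transcription factors and cofactors, 13 of 14 genes with a start site had H3K27ac there, 10 of them with height of 200 or more, and 13 had PHF6. The exception was Gata1, the master erythroid factor, with no peak of any list at its start and an H3K27ac peak of height 121 elsewhere in its window. Heme synthesis genes had H3K27ac and PHF6 at 5 of 5 starts, genes of iron supply H3K27ac at 5 of 6 and PHF6 at 6 of 6, and genes of erythropoietin signalling both at 7 of 8, the exception being Kit, the stem cell factor receptor, with neither. Red cell membrane genes had H3K27ac at 5 of 11 starts and PHF6 at 7, and globins H3K27ac at 2 of 7 and PHF6 at 4. For all genes these shares were 63.3% for H3K27ac and 69.2% for PHF6. Many genes of the first lists also act outside the red cell.

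The 5 tallest acetylated starts of these lists, by H3K27ac height, were Zbtb7a (364), known in humans as a repressor of fetal globin, Pim1 (358), a STAT5-induced kinase, Ikzf1 (354), the lymphoid factor Ikaros, and, at 351 each, the ferritin gene Fth1, the iron sensor Ireb2 and Lyl1, a relative of the hematopoietic factor Tal1, so 6 genes are named for the tie. H3K27me3 lay at the starts of 10 of the 51 genes with a start site in the 6 lists, against 3.65% of all genes. Outside these lists it lay at 2 of 6 myeloid marker starts, and at 0 of 8 pre-B and 0 of 6 T cell ones. By H3K27me3 height the 10 genes were Fth1 (138), Hba-a2 (74), Ftl1 (69), Hbb-bs (65), Hbb-bt (47), Socs3 (31), Pim1 (23), Sox6 (16), Sptb (14) and Tal1 (13). All of them but Hba-a2 also had H3K27ac at a start site, at heights from 27 for Sptb, the erythroid spectrin, to 358 for Pim1. Among the globins, Hbb-bt and Hbb-bs (adult beta globin) had H3K27ac at their starts, with heights of 70 and 61, and no PHF6, while Hba-a1 and Hba-a2 had PHF6 and no H3K27ac. Hbb-bt and Hbb-bs are also close copies of each other, so reads may be shared between them. The embryonic gene Hbb-y had no peak of any list at its start.

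**Figure D4:**
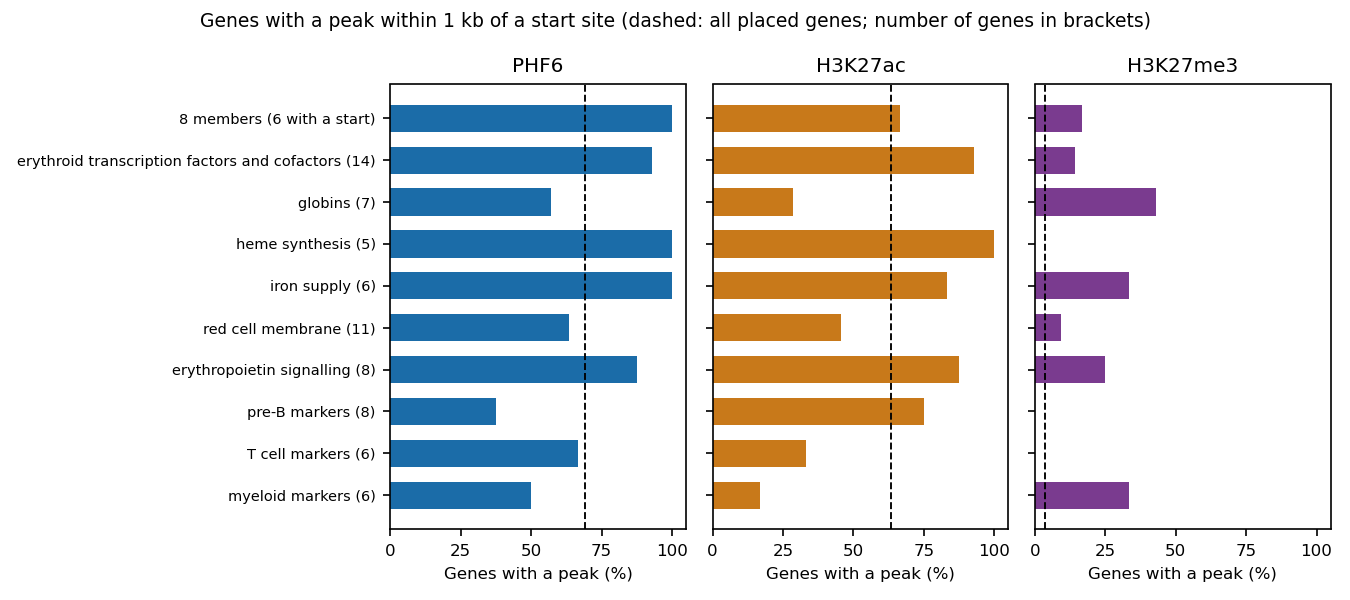
Percent of genes with a PHF6, H3K27ac or H3K27me3 peak within 1 kb of a start site, for the 8 erythroid identity genes (6 with a start site), 6 erythroid pathway lists and 3 lists of cell type markers, with the number of genes in brackets. Dashed lines are the shares over all placed genes (69.2, 63.3 and 3.65%); each bar rests on 5 to 14 genes and carries no error because each antibody had 1 library.

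The labelled cell type was checked on the same scale. Of pre-B markers with a start site, 6 of 8 had H3K27ac there, against 63.3% of all genes, so this count was near that of genes at large. In 5 of the 8 the height was 200 or more, against 39.3% of all genes. Among them were Pax5 (313), Ebf1 (297), Cd79a (316) and Vpreb1 (329). Rag1 and Rag2, the recombinase genes, had no peak of any list in their windows. H3K27ac was at 2 of 6 T cell marker starts, Lck (109) and Cd5 (118), at 1 of 6 myeloid ones, Cebpa (20), and at 2 of 5 erythroid marker starts outside the 8 genes, the beta globin genes above. No T cell or myeloid marker start, and no erythroid one outside the 8 genes, reached a height of 200. Among the 8 genes, Klf1 (283) and Tfrc (329) did. PHF6 showed another order, with a peak at 3 of 8 pre-B, 4 of 6 T cell and 3 of 6 myeloid marker starts. It was at 0 of 5 erythroid marker starts outside the 8 genes, but at 6 of 6 starts of the 8 genes themselves. The 0 of 5 therefore does not stand for erythroid genes in general. The share over all genes was 69.2%. Markers without a start site or position in the tables were not counted.

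The border of the windows cuts through some of these loci. The H3K27ac peak of height 302 at Tsc1 had its summit 0.67 kb inside the higher-coordinate border of the Gfi1b window. The nearest H3K27ac peak left out, of height 19, lay 0.25 kb beyond the opposite border. At Tfrc the last H3K27ac peak inside had height 33, with its summit 1.06 kb from the border. The nearest one outside the window, on either side, had height 20 and lay 1.08 kb away. Gene positions came from GRCm38 and were moved by local offsets, from 49 bp at Tfrc to 2523792 bp at Klf1, which rested on 7 (Hba-a1) to 46 (Slc4a1) matched start sites. Offsets found from PHF6 summits instead differed by at most 302 bp.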

How the data were processed

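PHF6, H3K27ac and H3K27me3 were profiled by ChIP-seq in 1 library each, and an input library was not analysed here. Per the submitters' processing notes the build was mm9 and the tools included Bowtie2, SAMtools and MACS 1.4.0, with no options stated. List names carry a threshold of 1e-6 throughout, and a mark for peak calling without local background on PHF6 and H3K27ac only, so H3K27me3 was called under another setting. Each peak has a deposited score (smallest value 60) and each summit a deposited signal, a whole-number pileup height. The lists give no read totals, so depth is unknown and heights were compared only within a list. Columns of other samples numbered 0.

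The gene table (RefSeq, GRCm38.p6) and the lists are on different builds. For each gene, annotated start sites within 2 Mb were matched to H3K27ac summits of height 200 or more at every offset up to 8 Mb, and the offset with most start sites within 500 bp of a summit was taken where it had at least 5 matches and 1.5 times the next best. Other genes took the mean of both placed neighbours where these differed by at most 1 kb. This placed 17541 of 21887 protein-coding genes, 15219 of them by an offset of their own, and all 8 genes described. For the other 4346 no offset met these rules, and since placement needs acetylated start sites nearby, shares over all genes may lean to acetylated regions. On simulated lists with a known offset, 99.7% of the 907 placed genes of 1057 were within 300 bp. Those lists had a constant offset along each chromosome and most tall summits at start sites. They therefore cannot show errors where the offset changes along a chromosome or where matches are few. Strand was known only through the promoter table.

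A peak was counted with an overlap of at least 1 bp. The 8 genes are named in full, with the 5 tallest H3K27ac starts of the pathway lists (more at a tie), every listed gene with H3K27me3 at its start, and markers that go against the labelled cell type. The genes and lists were chosen with earlier results of these data known. GATA matches were those of AGATAA or AGATAG and their counterparts with a first T. The motifs, the H3K27me3 height of 40 and the offsets from PHF6 summits were chosen after values were seen. With 1 library per antibody, no p-value was calculated. Alternatives were other flanks, start site windows, scores, overlap rules and offsets. Steps used Python 3.11.15, numpy 2.4.6, pandas 2.3.3 and matplotlib 3.10.9.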

Additional observations from a re-analysis of the deposited data

How the results depend on the processing

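Of 96 alternative values, 82 stayed within 1.5 times the reported count. The numbers of peaks followed the width of the window. With the gene body alone there were 22 PHF6, 11 H3K27ac and 1 H3K27me3 peaks, with a flank of 5 kb 31, 16 and 1, and with 50 kb 134, 64 and 4, against 62, 28 and 2 with 20 kb. With 50 kb, 2 of the 8 genes had H3K27me3 in the window, against 1. With the summit, not the peak, within 1 kb of the start, H3K27ac was at 2 of 6 genes, against 4, and PHF6 at 4, against 6. PHF6 was at 5 starts with a start site window of 500 bp, with a score of at least 100, or with offsets moved by plus 1 kb. With offsets from H3K27ac summits of height 300 or more, Hba-a1 could not be placed, so 0 genes had H3K27me3 in the window, 0 at the start, and 0 H3K27me3 peaks were counted. With a neighbourhood of 1 Mb for the offset, Gfi1b could not be placed. The offset from PHF6 summits, added after seeing the data, was among the settings that moved no count by over 1.5 times. Unknown depth and 1 library per antibody limit every count, and a missing peak does not show that a protein or mark was absent. No paired analysis was possible because no group had a second library to pair.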
